A study of Homo sapiens with 8 samples.

Results

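Transcripts of 10 genes were followed on 8 two-colour arrays of human cancer cell lines. The genes were the receptors EGFR, ERBB2 and MET, the ligands AREG, EREG, HBEGF, TGFA, BTC and NRG1, and the receptor inhibitor ERRFI1. They were chosen by name, as every array probe outside the control spots that carries 1 of these gene names, which gave 16 of the 58201 probes and 10 of 41810 named genes. EGFR had 3 probes, AREG, ERBB2, NRG1 and TGFA had 2 each, and the other 5 genes had 1 each. Probe 1 of a gene is its brightest probe.

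On every array mock cells, which the labels call no transfection, gave the RNA of the Cy3 channel. Cells of the same line transfected with RNAiMAX, a lipid reagent, gave that of the Cy5 channel. No array carried a control oligonucleotide, so the effect of an agent and that of transfection itself cannot be told apart. The renal cancer lines A498 and 786-O each received miR-139-5p on 1 array and miR-139-3p on another, so the replicates of each strand (n = 2) are cell lines. The breast cancer line MDA-MB-231 received si-GINS1 as siRNA 1 on 1 array and siRNA 2 on another (n = 2), small interfering RNAs against GINS1, a subunit of the replicative helicase. The colorectal cancer line HCT116 received miR-490-5p on 1 array and miR-490-3p on 1 array, with no replicate. The arrays of a line may share a mock extract, which the labels leave unsaid.

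EGFR and ERBB2 are receptor tyrosine kinases of the epidermal growth factor receptor family, which pair on ligand binding and signal through the RAS, MAP kinase and PI3 kinase routes. Their ligands are made as membrane-bound precursors that proteases shed from the cell surface, so a cell can stimulate itself or its neighbours. MET is the receptor of hepatocyte growth factor and shares much of this downstream signalling in carcinoma cells, while ERRFI1 (also called MIG6) binds the EGFR kinase domain, inhibits it and is itself induced by the pathway.

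The mature miRNAs are shown because an miRNA finds transcripts mainly by its seed, bases 2 to 8, given here in capitals. The sequences are those of RefSeq, 5′ to 3′, on GRCh38.p14. Those of miR-139 come from chr11:72615102-72615124 (5p) and chr11:72615066-72615088 (3p) on the minus strand. Those of miR-490 come from chr7:136903205-136903224 (5p) and chr7:136903242-136903263 (3p) on the plus strand.
miR-139-5p: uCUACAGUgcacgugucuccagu
miR-139-3p: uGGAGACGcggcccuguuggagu
miR-490-5p: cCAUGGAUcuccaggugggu
miR-490-3p: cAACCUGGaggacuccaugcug

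The 4 seeds differ from each other. The probes of the 10 genes were searched for the word that pairs with bases 2 to 8 and for the word that pairs with bases 2 to 7 followed by A. For miR-139-5p (ACTGTAG and CTGTAGA), miR-490-5p (ATCCATG and TCCATGA) and miR-490-3p (CCAGGTT and CAGGTTA), 0 of the 16 probes held a word. For miR-139-3p 0 held CGTCTCC and 1 held GTCTCCA, probe 1 of TGFA, a word found in 0.517% of all 58201 probes. The other 7 words were found in between 0.168% and 0.588% of all probes. A probe covers 60 bases, and the rest of each transcript was not searched. The TGFA probe lies at chr2:70683472-70683531 on the minus strand of hg19, and is printed with the miR-139-3p word in capitals.
TGFA probe 1: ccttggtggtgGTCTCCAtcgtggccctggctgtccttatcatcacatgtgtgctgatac

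Promoters are shown for AREG, whose probes had the largest mean changes that limma called among the 16, and for EREG, its neighbour on chromosome 4, which was not called. RefSeq promoter sequences (GRCh38.p14) matched 9 of the 10 genes, TGFA with more than 1 start. The 250 bases before each start were searched for the cAMP response element TGACGTCA and the AP-1 motif TGANTCA on both strands, and for the TATA box TATAAA on the gene's own strand. No pair of these motifs overlapped in the sequences printed. The cAMP response element was found in 1 of the 9, AREG, against 1.65% of 35116 promoters, and the TATA box in AREG, EREG and EGFR, against 6.8%. The AP-1 motif was found in EGFR and ERBB2, against 6.57%. The last 120 bases before the start are printed with matches in capitals, for AREG from chr4:74445016-74445135 and for EREG from chr4:74365025-74365144, both on the plus strand.
AREG: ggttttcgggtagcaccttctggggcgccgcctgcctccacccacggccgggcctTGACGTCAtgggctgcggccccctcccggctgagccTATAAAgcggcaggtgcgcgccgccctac
EREG: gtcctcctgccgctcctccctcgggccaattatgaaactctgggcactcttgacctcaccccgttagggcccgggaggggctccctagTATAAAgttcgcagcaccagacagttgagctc

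In AREG the element began at base -65 and the TATA box at base -29 from the start, and in EREG the TATA box began at base -32. These are matches of letters, and binding was not measured.

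Between 24980 and 29685 probes per array passed the scanner flag for signal well above background in Cy3 or Cy5. Across probes, the difference between the mock signals of the arrays of a line had an SD of 0.10 (A498), 0.08 (786-O), 0.07 (MDA-MB-231) and 0.08 (HCT116) on the log2 scale, which is called the technical spread below. It sets Cy3 against Cy3, so it holds no difference between the dyes and none between transfections. Of 4 renal markers 3 were above background in the mock of A498 and 3 in that of 786-O, and CUBN was not in either. Of 5 colorectal markers 3 were above background in HCT116, where VIL1 and CDH17 were not, and of 4 breast markers 3 in MDA-MB-231, where SCGB2A2 was not. Several of these markers were above background in all 4 lines, PAX8, EPCAM and TFF1 among them, so they do not separate the lines. GINS1 itself had a log2 ratio of -1.31 with siRNA 1 and -1.92 with siRNA 2 (limma adjusted p 0.0174), and between -0.11 and 0.55 on the other 6 arrays.

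The mock channels give the level of each gene in each line before transfection, as log2 Cy3 intensity after normalization. At least 1 pair of lines differed by 1 log2 unit or more for 13 of the 16 probes, against 24.1% of all 32333 probes measured in a line. The 3 probes that did not were those of BTC, probe 2 of ERBB2 and probe 3 of EGFR. Each line counts as 1 sample here, so no test was made, and levels are compared between lines for the same probe only. In a bulk sample, fewer cells that make a transcript and less of it per cell cannot be told apart.

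Among the receptors, EGFR probe 1 (NM_005228, chr7:55274841-55274900) was highest in 786-O, at 9.19 and 9.17 on both arrays. A498 followed at 7.79 and 7.75, then MDA-MB-231 at 7.45 and 7.53 and HCT116 at 6.94 and 6.87. The arrays of different lines did not overlap, and 786-O stood 4.85-fold above HCT116. Probe 2 of EGFR (NM_201283, a variant for a truncated receptor) had the same order, from 7.11 in 786-O to 5.94 in HCT116. Probe 3 (NM_201282, another truncated variant) was at the limit of detection, between 5.77 and 6.03, and not well above background in A498 or HCT116.

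ERBB2, the family member that binds no ligand of its own, had its highest level in A498. Its probe 1 (NM_001005862, chr17:37884829-37884888), spotted 10 times on each array, gave 9.87 and 9.87 there, 2.42-fold above 786-O. The other lines lay at 8.59, 8.59 and 8.61, closer together than the technical spread. Probe 2, assigned to the transcript ENST00000584014, was dim, between 6.04 and 6.31. MET (NM_000245, chr7:116438290-116438349) was at 12.87 and 13.25 on the A498 arrays and at 12.84 and 12.96 on the 786-O arrays, which overlap. MET was lower in HCT116 at 11.93 and lowest in MDA-MB-231 at 11.20, 3.63-fold below A498.

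AREG (amphiregulin) and EREG (epiregulin) had the widest ranges of the ligands. AREG probe 1 (NM_001657, chr4:75320518-75320577) was at 11.63 and 11.66 in HCT116, 10.16 and 10.15 in MDA-MB-231, 9.18 and 9.26 in A498, and 7.86 and 7.86 in 786-O. HCT116 stood 13.8-fold above 786-O, and probe 2 (chr4:75318293-75318352) gave the same order with a difference of 10.6-fold. The hg19 assembly carries a near-identical copy of AREG beside it, and signal of the copies cannot be told apart. EREG (NM_001432, chr4:75254009-75254068) was at 10.43 and 10.40 in HCT116 and 9.71 and 9.62 in 786-O, but at 6.33 and 6.30 in MDA-MB-231 and 5.83 and 5.89 in A498. Its signal in A498 was well above background on 1 of the 2 arrays, and HCT116 stood 23.6-fold above it. The line with the lowest AREG, 786-O, was thus second highest for EREG.

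HBEGF (heparin-binding EGF-like growth factor, NM_001945, chr5:139713052-139713111) was highest in MDA-MB-231, at 7.41 and 7.50. It was near 6.2 in A498 (6.20 and 6.14) and HCT116 (6.18 and 6.23), which overlap, and not well above background in 786-O, so that MDA-MB-231 stood at least 2.84-fold above 786-O. TGFA (transforming growth factor alpha) by probe 1 (NM_003236) was highest in A498 at 8.83 and lowest in HCT116 at 7.63, with MDA-MB-231 (8.60) and 786-O (8.40) between. TGFA probe 2 (chr2:70675319-70675378), with the same accession, ranked A498 first at 7.15 but put MDA-MB-231 at 5.96 beside HCT116 at 5.94, so the probes disagree on MDA-MB-231. BTC (betacellulin, NM_001729, chr4:75675838-75675897) varied least, from 6.16 in A498 to 6.59 in 786-O.

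NRG1 (neuregulin 1, NM_004495) is a ligand of the partners of ERBB2 rather than of EGFR. Its probe 1 ranked 786-O (7.53), A498 (6.96), MDA-MB-231 (6.80) and HCT116 (5.96), and probe 2 gave 7.62, 6.90 and 6.76 in the first 3 and was not well above background in HCT116. By the latter 786-O stood at least 3.44-fold above HCT116. ERRFI1 (NM_018948, chr1:8072208-8072267) was at 12.88 and 12.95 in 786-O, 12.09 and 12.17 in HCT116, 11.40 and 11.57 in A498, and 10.16 and 10.07 in MDA-MB-231, a difference of 6.97-fold between the first and the last. A bound ("at least") sets the mean of the brighter line against the higher of the dim probe's own signal and the lowest signal well above background.

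**Figure D1:**
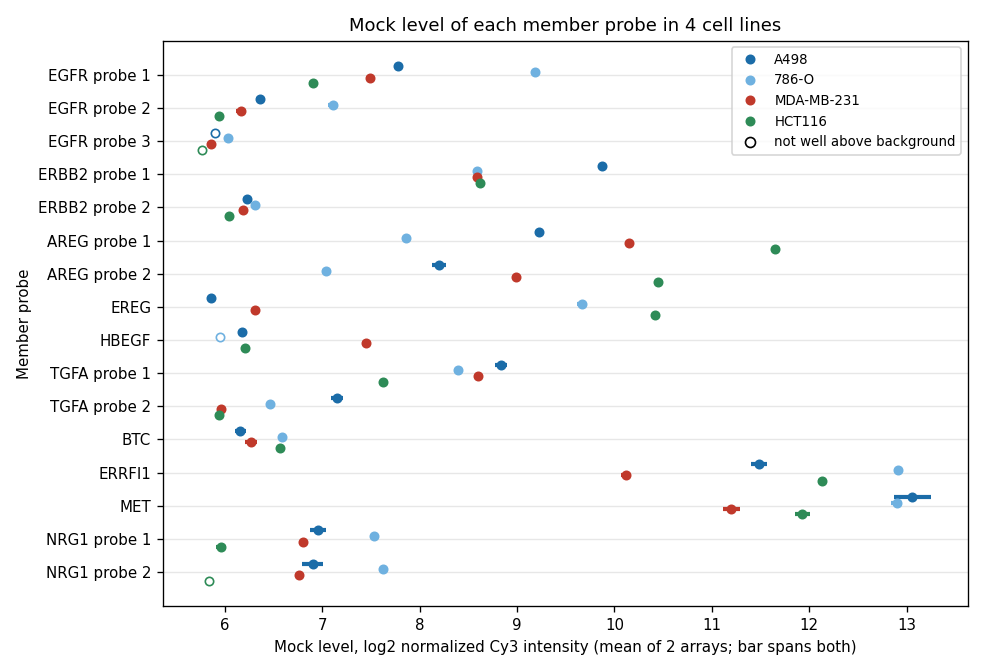
Mock level (log2 normalized Cy3 intensity, x axis) of the 16 probes (y axis) in 4 cell lines, as the mean of both arrays of a line with a bar that spans the arrays and open points where the probe was not well above background. AREG runs from 7.86 in 786-O to 11.64 in HCT116, and EREG from 5.86 in A498 to 10.42 in HCT116.

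After transfection, a log2 ratio above 0 means more transcript in transfected than in mock cells. Dyes were never swapped, so any dye preference of a probe stays in its ratio. Ratios of the 16 probes lay between -1.57 and 1.23. On the 4 renal cancer arrays they stayed between -0.52 and 0.30, whereas 3 probes passed 1 log2 unit with siRNA 1, 1 with siRNA 2, and on the HCT116 arrays 3 for the 5p strand and 1 for the 3p strand. TGFA probe 2 was below 0 on all 8 arrays, from -0.23 to -0.09, and a part of dye preference in it was not tested.

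**Figure D2:**
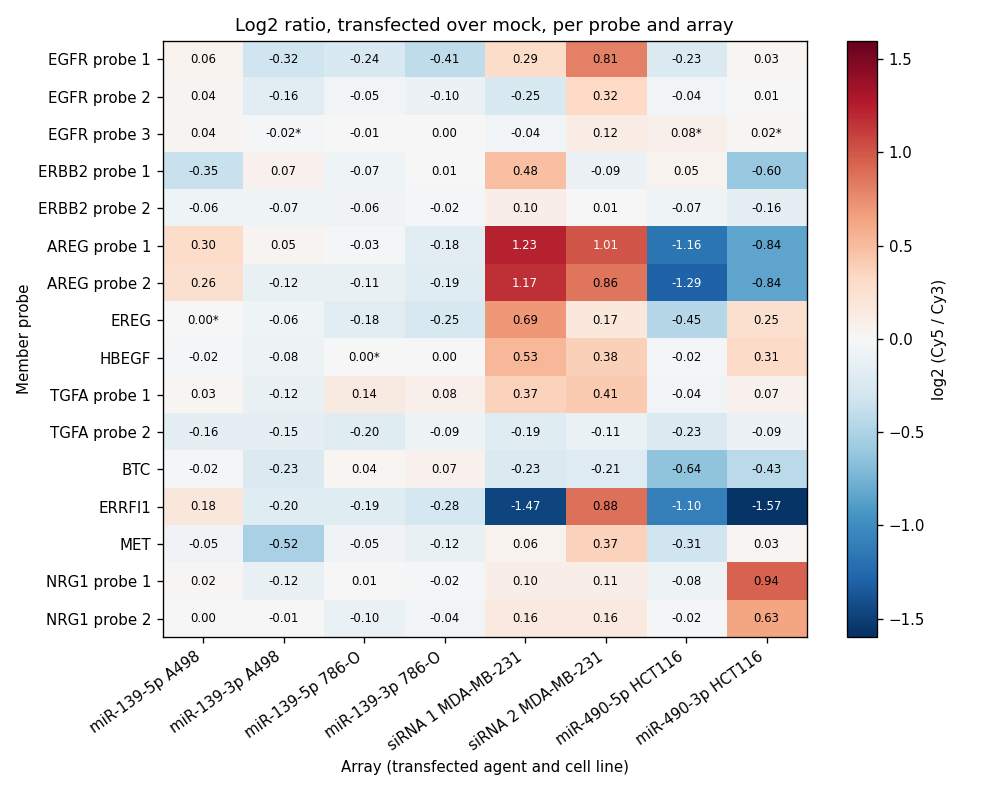
Log2 ratio of transfected over mock (colour and printed value) for the 16 probes (rows) on the 8 arrays (columns), with an asterisk where a probe was not well above background in either channel. The largest ratios belong to AREG and ERRFI1 on the MDA-MB-231 and HCT116 arrays, and the 4 renal cancer arrays lie between -0.52 and 0.30.

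The comparison of si-GINS1 with mock takes in both the lowering of GINS1 and the transfection. In it 3 of the 6 ligands were higher in MDA-MB-231, TGFA by 1 of its 2 probes. limma called 4 of the 16 probes, all higher, for AREG, HBEGF and TGFA, at an adjusted p under 0.05 over all probes. Of all 27795 probes tested 6.96% were called, 3.33% as higher. Of the 16 probes 13 had a mean above 0, with a median of 0.18, against a median of 0.01 over all probes tested.

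AREG changed most. Its probe 1 lay at 1.23 with siRNA 1 and 1.01 with siRNA 2, and probe 2 at 1.17 and 0.86. Both siRNAs thus put AREG far further above 0 than the technical spread of 0.07. The mean of probe 1 was 1.12 ± 0.15 (SD, n = 2), 2.17-fold, with an SE of 0.11 and a limma adjusted p of 0.0183. The mean of probe 2 was 1.02 ± 0.22 (SD, n = 2), 2.02-fold, with a limma adjusted p of 0.0231.

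HBEGF lay at 0.53 with siRNA 1 and 0.38 with siRNA 2, a mean of 0.45 ± 0.10 (SD, n = 2; limma adjusted p 0.0238). TGFA probe 1 lay at 0.37 and 0.41, a mean of 0.39 ± 0.03 (SD, n = 2; limma adjusted p 0.0445). TGFA probe 2 went the other way, at -0.19 and -0.11, and was not called (limma adjusted p 0.139), and its Cy5 signal was not well above background with siRNA 2. The 2 probes of TGFA lie over different stretches of the transcript, and their difference was not tested.

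EREG lay at 0.69 with siRNA 1 and 0.17 with siRNA 2 and was not called (mean 0.43, limma adjusted p 0.141). BTC was just below 0 with both, at -0.23 and -0.21 (limma adjusted p 0.176). Probes 1 and 2 of NRG1 lay between 0.10 and 0.16 and neither was called (limma adjusted p 0.235 and 0.113). The ligands that lie beside each other on chromosome 4, AREG, EREG and BTC, therefore had mean ratios of 1.12, 0.43 and -0.22.

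The receptors were not called. EGFR probe 1 lay at 0.29 with siRNA 1 and 0.81 with siRNA 2, a mean of 0.55 ± 0.37 (SD, n = 2; limma adjusted p 0.0937). Probe 2 of EGFR took opposite signs, -0.25 and 0.32, and ERBB2 probe 1 did too, at 0.48 and -0.09. MET lay at 0.06 and 0.37 (limma adjusted p 0.350).

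ERRFI1 had the widest gap between the siRNAs of all 16 probes. It lay at -1.47 with siRNA 1 and 0.88 with siRNA 2, on opposite sides of 0, so its mean of -0.29 ± 1.66 (SD, n = 2; limma adjusted p 0.784) describes neither array.

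These calls depend on a spread estimated from the 6 arrays of the groups with replicates. With the si-GINS1 arrays fitted alone, or with the log ratio of the scanner software, 0 of the 16 probes were called (AREG probe 1, limma adjusted p 0.523 and 0.0812). AREG was called in the other 9 alternatives, while HBEGF and TGFA lost their calls also with an offset of 10 in the background correction (limma adjusted p 0.0569 and 0.117), without that correction (0.0508 and 0.0940) and with the probe means of the other lines taken off (0.0542 and 0.0953). TGFA probe 1 was also over the limit with no filter on dim probes (0.0555) and under a robust prior with a variance trend (0.0807). By contrast EGFR probe 1 was called under median centring (mean 0.85, limma adjusted p 0.0449), where 2975 of all 27795 probes were called.

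**Figure D3:**
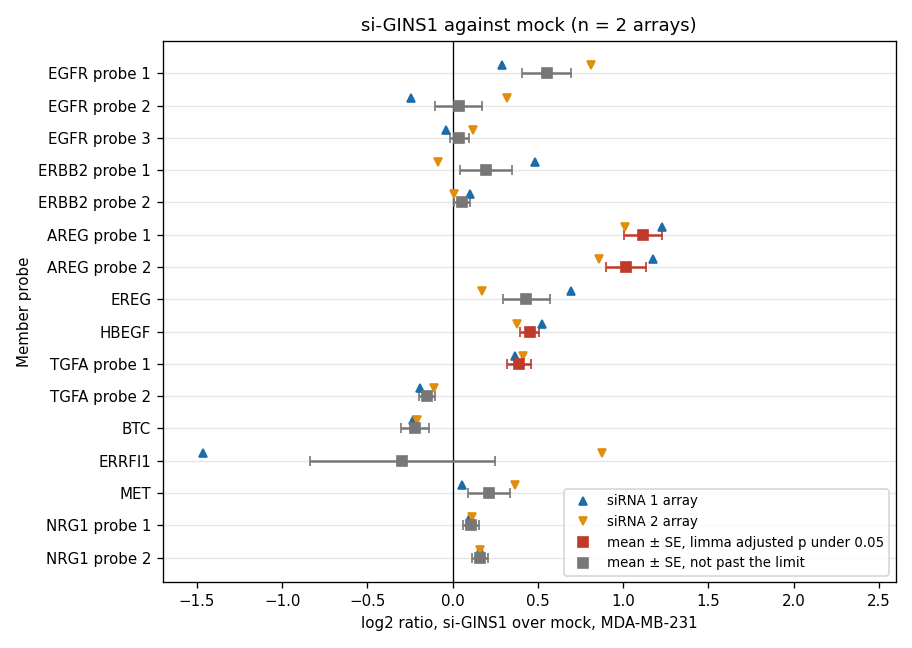
Log2 ratio of si-GINS1 over mock in MDA-MB-231 (x axis) for the 16 probes (y axis), with the siRNA 1 and siRNA 2 arrays as triangles and the mean ± SE as squares, red where the limma adjusted p is under 0.05. AREG, HBEGF and TGFA probe 1 have both siRNAs above 0, and ERRFI1 has siRNA 1 at -1.47 and siRNA 2 at 0.88.

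For miR-139-5p against mock, limma called 0 of the 14 probes tested, against 0.0129% of all probes, and 1 of the 14 had an unadjusted p under 0.05 (TGFA probe 2, mean -0.18), against 2.54% of all probes. AREG probe 1 lay at 0.30 in A498 and -0.03 in 786-O, and probe 2 at 0.26 and -0.11. In A498 both probes exceeded the technical spread of 0.10, and in 786-O probe 1 did not. ERBB2 probe 1 lay at -0.35 in A498 and -0.07 in 786-O, and EGFR probe 1 at 0.06 and -0.24. MET lay at -0.05 in both lines and ERRFI1 at 0.18 and -0.19.

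For miR-139-3p against mock, limma called 0 of the 15 probes tested, against 0% of all probes, and 1 of the 15 had an unadjusted p under 0.05 (MET), against 4.44% of all probes. MET lay at -0.52 in A498 and -0.12 in 786-O. In A498 the mock level of MET was 13.25 on this array and 12.87 on the miR-139-5p array, further apart than the technical spread of 0.10. The transfected levels were 12.73 and 12.82. EGFR probe 1 lay at -0.32 in A498 and -0.41 in 786-O, a mean of -0.36 ± 0.06 (SD, n = 2; limma adjusted p 0.9999). Of the 15 probes 14 had a mean below 0, with a median of -0.08, against a median of 0.003 over all probes tested. Some of these means lay within the technical spread of 0.10, among them HBEGF at -0.04 and NRG1 probe 2 at -0.02. Under median centring NRG1 probe 2 lay at 0.03 in A498 and 0.07 in 786-O, while EGFR probe 1 lay at -0.25 in both lines. The median over all measured probes was then 0.04 and 0.06. The count below 0 thus depends on the normalization. ERRFI1 lay at -0.20 and -0.28. TGFA probe 1, which carries the miR-139-3p word shown above, lay at -0.12 in A498 and 0.08 in 786-O.

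Both strands were set against each other by a contrast of miR-139-3p minus miR-139-5p, in which a dye preference common to the arrays leaves the comparison. Of 13 probes limma called 0, against 0% of all probes, and 0 of the 13 reached an unadjusted p under 0.05, against 0.676% of all probes. The EGFR probe 1 difference was -0.27 with an SE of 0.20, and that of MET was -0.27 with an SE of 0.18. The MET difference includes the gap between its A498 mock levels given above.

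The HCT116 arrays set colorectal cancer cells transfected with each strand of miR-490 against mock, and with 1 array each they allow no test. A log2 ratio at or beyond 1 was the rule of size. With miR-490-5p 3 of 15 measured probes lay at or below -1, those of AREG and ERRFI1, against 0.963% of all 27929 probes, and 0 lay at or above 1, against 0.265%. With miR-490-3p 1 of 15 lay at or below -1, ERRFI1, against 0.578% of all 28356 probes, and 0 at or above 1, against 0.346%. Of the 15 probes 14 were below 0 on the 5p array (median -0.23) and 7 on the 3p array (median 0.01). The medians over all measured probes were 0.01 and 0.006. Genes with more than 1 probe count more than once, and some probes lay within the technical spread of 0.08. On the 5p array these included HBEGF at -0.02 and EGFR probe 2 at -0.04.

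AREG, at its highest mock level in this line, was lower with either strand. With miR-490-5p its probes 1 and 2 lay at -1.16 and -1.29, and both lay at -0.84 with miR-490-3p. These are levels 2.24-fold and 2.44-fold below mock for the former strand, and 1.80-fold and 1.79-fold for the latter. Median centring, which moves all probes, put AREG probe 1 at -0.95 (5p) and -0.47 (3p). Both probes were further from 0 than the technical spread of 0.08 with either strand.

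ERRFI1 was lower still with miR-490-3p, at -1.57 (2.96-fold), and lay at -1.10 (2.14-fold) on the miR-490-5p array, where median centring gave -0.87. In the same order of strands, 5p and then 3p, BTC lay at -0.64 and -0.43. BTC was dim, and with an offset of 10 its miR-490-5p value was -1.29. EREG parted from AREG, at -0.45 and 0.25.

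ERBB2 probe 1 lay at 0.05 on the 5p array and at -0.60 on the 3p array, 1.52-fold lower. EGFR probe 1 lay at -0.23 and 0.03, and MET at -0.31 and 0.03. HBEGF lay at -0.02 and 0.31, and TGFA probe 1 at -0.04 and 0.07. TGFA probe 2 lay at -0.23 and -0.09, with a Cy5 signal not well above background on either array, so that it was at least 1.17-fold and 1.07-fold lower than in mock. Both bounds use the probe's own Cy5 signal, so they equal its ratios. By the scanner log ratio this dim probe lay at -2.57 and -1.03. With its mean over the arrays of the other lines taken off, it lay at -0.08 and 0.06, so its sign with miR-490-3p depends on the setting. Only ERBB2 and ERRFI1 were lower with miR-490-3p than with miR-490-5p among the brightest probes of the 10 genes.

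NRG1 stood out on the miR-490-3p array among the members. Its probe 1 went from -0.08 on the 5p array to 0.94 on the 3p array (1.92-fold above mock), and probe 2 from -0.02 to 0.63. For probe 2 the mock signal was not well above background on either HCT116 array, so with miR-490-3p NRG1 by this probe was at least 1.54-fold higher (log2 levels of 6.44 against 5.82). The ratio of so dim a probe depends on the background correction. With an offset of 10 in place of 50, probe 1 lay at 1.79 and probe 2 at 1.44, and by the scanner log ratio at 2.73 and 2.88.

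Setting the arrays against each other, the miR-490-3p minus miR-490-5p difference reached 1 log2 unit for 1 of 15 probes, NRG1 probe 1 at 1.02, against 1.17% of all 26881 probes. It was 0.71 for EREG, 0.64 for NRG1 probe 2, 0.32 for AREG probe 1, -0.66 for ERBB2 probe 1 and -0.47 for ERRFI1. Of the 15 probes 12 had a difference above 0, with a median of 0.26, against -0.0004 over all probes measured. Both ratios have mock channels of the same line, which may be 1 extract.

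**Figure D4:**
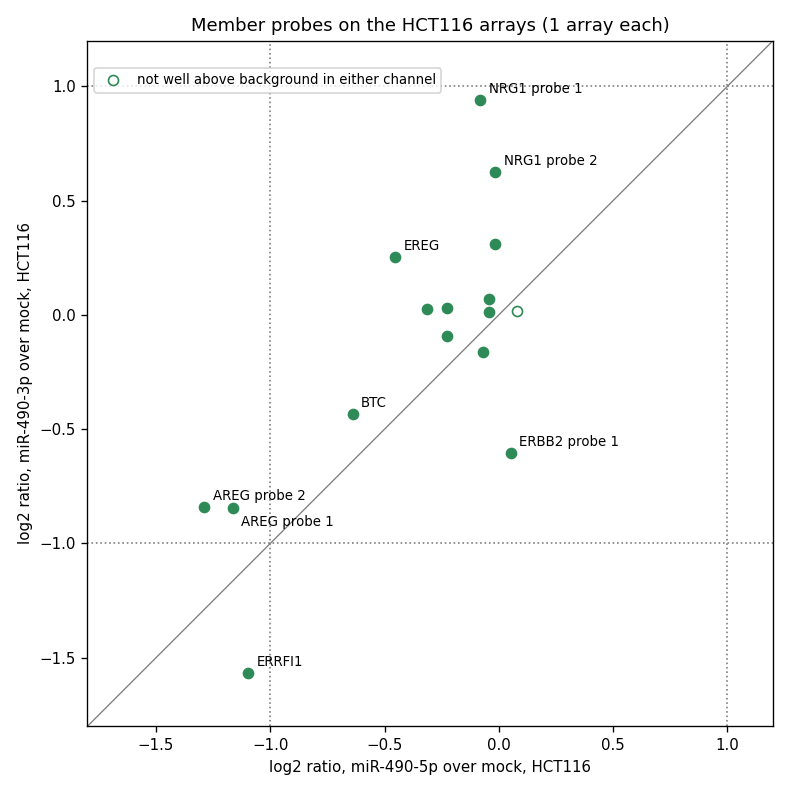
Log2 ratio over mock in HCT116 with miR-490-5p (x axis) and miR-490-3p (y axis) for the 16 probes, 1 array each, with dotted lines at 1 log2 unit, a diagonal of equal ratios and an open point for the probe not well above background. AREG and ERRFI1 are low with both strands, and NRG1 probe 1 lies at 0.94 with the 3p strand but at -0.08 with the 5p strand.

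Other genes of the pathway were counted by their brightest probe in 5 lists. The counts for si-GINS1 stand beside 3.33% of all probes called as higher and 3.63% as lower, so 1 call in a list of this size is no result about the list. For the miR-139 groups and their contrast 0 genes of any list passed the test. Of 6 tested receptors and ligands outside the 10 genes, 1 was lower with si-GINS1. It was MST1R, the MET-related receptor of macrophage-stimulating protein, at -0.45 (limma adjusted p 0.0407). In HCT116 MST1R had ratios of -1.47 (miR-490-5p) and -1.11 (miR-490-3p) and was the 1 gene of 5 measured in that list past 1 log2 unit on either array. Of 4 genes for the shedding of ligands, ADAM17, ADAM10 and the iRhoms RHBDF1 and RHBDF2, 0 passed in any comparison.

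Of 17 tested adaptors and kinases, 2 were lower with si-GINS1. PTPN11 (the phosphatase SHP2) had a mean of -0.46 and MAPK3 (ERK1) of -0.41, with limma adjusted p values of 0.0231 and 0.0383. The list median was 0.06. Of 11 genes of receptor turnover and feedback, 1 fell, the ubiquitin ligase gene CBLB, at -0.37 (limma adjusted p 0.0445). In these 2 lists 0 genes passed 1 log2 unit in HCT116.

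Of 10 targets of ERK signalling, 3 were higher and 1 lower with si-GINS1. The list median was 0.37 against 0.01 over all probes tested. The early response transcription factor EGR1 lay at 0.85 with siRNA 1 and 1.18 with siRNA 2 (mean 1.02, limma adjusted p 0.0174) and IER3 at 0.89 and 0.997 (mean 0.94, limma adjusted p 0.0174). ETV4 had a mean of 0.38 (limma adjusted p 0.0411). Cyclin D1, CCND1, went the other way at -1.44 and -1.01 (mean -1.22, limma adjusted p 0.0167). In HCT116 the list median was -0.35 for the 5p strand and 0.20 for the 3p strand. In the difference between the strands 1 gene passed 1 log2 unit, MYC at 1.33. EGR1 was above 0 on all 8 arrays. It lay at 0.92 (5p) and 0.53 (3p) in HCT116, and between 0.06 and 0.22 on the renal cancer arrays. The rise of EGR1 was thus not confined to si-GINS1, and a part of transfection or dye preference in it was not tested. IER3 lay at -0.38 (5p) and -0.28 (3p) in HCT116.

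Genes whose ratios ran most like a member's over the 8 arrays were listed for members with a range of 1 log2 unit or more, among 15915 genes measured on all arrays. The 8 ratios share a slide, dyes and within a line perhaps a mock, and the values are a description. AREG (range 2.39) ran most like RRP9 (r = 0.984), UFM1 (0.984) and C9orf91 (0.984), and ERRFI1 (range 2.44) like DCAF4 (0.983), DUSP6 (0.982) and ENST00000455434 (0.974). EGFR (range 1.22) ran most like CXCL8 (0.975), GEM (0.971) and RWDD1 (0.971), ERBB2 (range 1.09) like FZD2 (0.975), HP1BP3 (0.971) and RPRD2 (0.965), and NRG1 (range 1.06) like HSD11B2 (0.985), METAP1D (0.972) and RAP1GDS1 (0.970). EREG (range 1.15), itself not well above background on 1 of the A498 arrays, ran most like JTB (0.988), NAA11 (0.987) and LINC01184 (0.981).

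How far the main values move with the processing is shown for 8 of them. AREG probe 1 with si-GINS1 ranged from 1.01 to 1.61 and HBEGF from 0.38 to 0.75, each above 0 in all settings run. ERRFI1 ranged from -1.61 to -1.19 with miR-490-3p and from -1.14 to -0.87 with miR-490-5p.

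**Figure D5:**
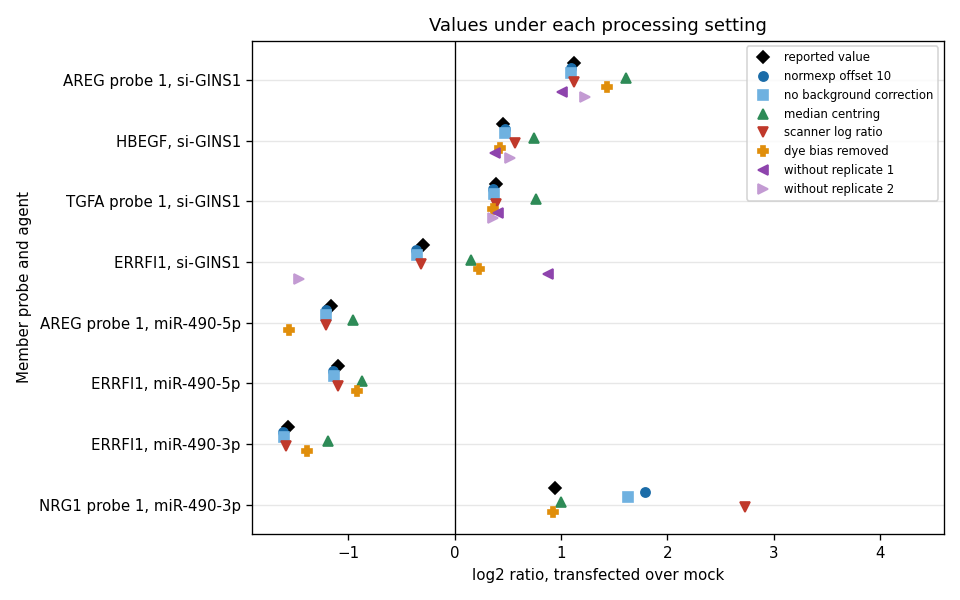
Log2 ratio over mock (x axis) of 8 pairs of a probe and an agent (y axis), as reported and under 7 other settings, with left-out replicates for si-GINS1 only. AREG probe 1, HBEGF and TGFA probe 1 stay above 0 with si-GINS1 in each setting, and ERRFI1 with si-GINS1 runs from -1.47 to 0.88.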

How the data were processed

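Gene expression was measured on 8 two-colour Agilent arrays of 1 slide, grouped by the transfection and cell line in the labels. Per the file headers, the authors scanned and processed the slide with Agilent Feature Extraction 11.5.1.1. The deposited intensity columns hold the mean brightness and median local background of each spot in each channel, on a linear scale. For each spot the deposited files also give the scanner software's log10 ratio, Cy5 to Cy3, and the series table holds the same values (largest difference 0). This served as an alternative, converted to log2 and called the scanner log ratio. Probe positions are on hg19, and exon and UTR boundaries were not used here.

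Of 62976 spots per array, 2075 were controls, 112 to 194 were outliers left out, and 0 were saturated. In limma 3.58.1 under R 4.3.3 (data.table version 1.17.8, jsonlite 2.0.0), background was corrected by normexp with an offset of 50, which pulls ratios of dim probes toward 0. Ratios were normalized by loess within arrays and averaged over spots of a probe. Groups of 2 arrays were tested against 0 across all probes (lmFit, eBayes) in 1 fit with 5 group means and 3 residual degrees of freedom. Probes had to be well above background in Cy3 or Cy5 on each array used, with Benjamini-Hochberg adjustment and a limit of 0.05. The p-values rest on 1 spread per probe pooled over the groups of 2 arrays, between lines for miR-139 and between siRNAs for si-GINS1. They do not measure the spread of a single group, and the spread of the mock itself is left out. Mock levels are Cy3 after loess and quantile normalization of average intensity. The rule of size was 1 log2 unit. Named genes were all probes of the 10 genes, list genes past a threshold and the 3 most alike genes per member. Alternatives were other offsets, normalizations, filters, fits and left-out arrays. "Dye bias removed" takes off each probe's mean over the arrays of the other lines. A call in the list of adaptors and kinases is not reported here. Members, lists and tests were chosen with earlier results of these data known. The test was run on simulated data with independent noise and 1 spread per probe common to all groups. Groups of unequal spread were not simulated. Sequences and plots used Python 3.11.15 (numpy 2.4.6, pandas 2.3.3, matplotlib 3.10.9). Array number limits the precision of every value.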

Additional observations from a re-analysis of the deposited data

Results flagged for a closer look

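Taking both strands of miR-139 together, 2 probes had both arrays of A498 on one side of 0 and both arrays of 786-O on the other. In A498 AREG probe 1 lay at 0.30 with the 5p strand and 0.05 with the 3p strand. The 786-O arrays put it at -0.03 and -0.18, so its mean log2 ratio was 0.27 higher in A498. AREG probe 2 did not share this pattern, since its A498 arrays lay at 0.26 and -0.12. In A498 BTC lay at -0.02 with the 5p strand and -0.23 with the 3p strand. The 786-O arrays put BTC at 0.04 and 0.07, and its mean was -0.18 as A498 minus 786-O. For both probes at least 1 array of each line lay within the technical spread between mock channels, 0.10 in A498 and 0.08 in 786-O. The 2 arrays of a line received different strands, and the difference between the lines was not tested. How many of all probes show this pattern of signs was not counted, so the count of 2 is no result about these genes.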

How the results depend on the processing

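The small number of arrays and the dim signal of NRG1, EREG, HBEGF and EGFR probe 3 in some lines limit these values. The si-GINS1 count of 4 member probes was 2 with an offset of 10, without background correction and with dye bias removed, 0 by the scanner log ratio and when its arrays were fitted alone, and 10 with the cell line as a random block. Leaving out 1 siRNA gave 7 to 8. Over all probes, the 1934 calls became 1515, 1662, 512, 75, 0 and 10515 in that order, 2975 under median centring, and 6708 without siRNA 1 or 9478 without siRNA 2, where the lone array is assumed to vary like the other groups. ERRFI1 was at 0.88 without siRNA 1, against the sign of its mean, and at -1.47 without siRNA 2. EGFR probe 2 was at -0.25 without siRNA 2, against the sign of its mean, and at 0.32 without siRNA 1. The miR-490-5p count of 3 was 1 under median centring and 5 by the scanner log ratio. Over all probes the count of 343 was 334 and 2479 (of 27929) in that order. The miR-490-3p count of 1 was 3 with an offset of 10, without background correction and with dye bias removed. It was 2 under median centring and 6 by the scanner log ratio. Over all probes the count of 262 was 551, 479, 262, 361 and 2301 (of 28356) in that order. For the miR-490-3p minus miR-490-5p difference the count of 1 was 2 with an offset of 10 or no background correction. It was 3 by the scanner log ratio. Over all probes 314 became 809, 695 and 2746 (of 26881) in that order. The mock count of 13 reached at most 16, with the signal processed by the scanner software. In that setting 20557 of all 32333 probes passed, in place of 7801. Counts for miR-139 were 0 in all alternatives run, also in the paired fit with the cell line as a replicate block, where the count was 0. Median centring raised the median of all measured probes to 0.12 with miR-139-5p in A498 and 0.16 with siRNA 1. AREG probe 1 lay at -0.95 with miR-490-5p under that setting, and the cause of these changes was not tested.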
